A study of Mus musculus with 8 samples.

Results

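The 4 genes Rgs2, Rgs4, Rgs11 and Rgs17, which encode regulators of G protein signalling (RGS), were followed in single enteroendocrine cells, which sit singly in the gut lining and secrete hormones. They are 4 of the 16115 genes that the deposited files share, and they were given as a list. The list was drawn up with results of these data in view and the values behind the choice are not recorded, so the levels of the 4 genes are described here, and p-values of theirs support nothing about the list. The cells came from mouse intestinal organoids of strain C57BL/6 and were sorted for a hormone reporter, 1 cell to a well. The Gcg-Venus line reports Gcg (proglucagon, made by L cells) on 2 plates, the Gip-Cre line reports Gip (the K cell incretin) on 1 plate, and the Tac1-Cre line reports Tac1 (which encodes substance P and marks enterochromaffin cells, the makers of serotonin) on 5 plates. On 5 plates all conditions lay side by side: no BMP4 in columns 1 to 6, 24 h of BMP4 in columns 7 to 12 and 4 d of BMP4 in columns 13 to 24, so that condition and place on the plate coincide. The other 3 plates, all of the Tac1 line, held BMP4 for 24 h (1 plate) or 4 d (2 plates). A Cre reporter can stay on in cells that no longer use its gene, so a sorted well is described below by the hormone transcripts it holds as well as by its line. The labels give no BMP4 dose and no control allele, and do not state whether plates are separate cultures, so the spread between plates may be technical.

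Hormone release from enteroendocrine cells is steered by G protein-coupled receptors for nutrients and hormones. A receptor loads its Gα subunit with GTP, and the subunit signals until the GTP is cleaved. RGS proteins speed that cleavage and so shorten the signal. Rgs2 is known for acting on Gαq, which drives phospholipase C. Rgs4 acts on Gαi/o and Gαq. Rgs11 belongs to the R7 subfamily, whose members act on Gαi/o and pair with the Gβ5 subunit. Rgs17 belongs to the RZ subfamily, which acts on Gαz and Gαi/o. BMP4 is a bone morphogenetic protein, a growth factor whose signal in the gut is known to strengthen from the crypt to the villus tip.

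Of 3072 wells, 1006 held at least 2000 transcripts and were kept. Their transcripts were summed per plate and condition into 17 sums of 98166 to 1251850 transcripts and 16 to 135 wells, with medians of 2759 to 15115 transcripts per well. The 24 h wells of Tac1 plate 2 held 9 wells and gave no sum. Well names were the same 384 on all 8 plates because they name positions, not cells. The 11 enteroendocrine markers summed to 6526 to 14278 CPM (a transcript count brought to one common total across the sums) in the Gcg and Gip lines and to 37449 to 84323 CPM in the Tac1 line, with only Scgn, Isl1 and, after 4 d, Scg2 at 0 on Tac1 plate 2. The 10 enterocyte markers summed to 6586 to 34556 CPM in the Gcg and Gip lines and to 1037 to 4901 CPM in the Tac1 line. Id1, a direct BMP target, rose by 4.76 ± 0.35 after 24 h and by 5.72 ± 0.34 after 4 d on the log2 scale (SE; edgeR quasi-likelihood test, adjusted p = 3.5e-06 and 2.1e-07). Files of the Gcg and Gip lines differ in kind from those of the Tac1 line (decimals kept, mitochondrial genes listed or not), so line and file kind cannot be told apart. For this reason values within a plate are given beside the differences of the 4 regulators between lines.

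Rgs2 and Rgs4 lie on mouse chromosome 1, which holds 11 RGS genes of the family list, at chr1:143999338-144004161 and chr1:169741477-169747642, both on the minus strand (mm10, GENCODE M21). The promoters of these 2 genes are shown because their levels were far apart between the lines and opposite in direction. Both windows, 300 bases around the start of the gene on its own strand, hold the letters TGACG or their complement CGTCA, the core of the cAMP response element, which are in capitals. The TATA box letters TATAAA of Rgs4 are also in capitals. The sequences are those of RefSeq on GRCm38.p6, at chr1:144004100-144004399 for Rgs2 and chr1:169747593-169747892 for Rgs4.
Rgs2: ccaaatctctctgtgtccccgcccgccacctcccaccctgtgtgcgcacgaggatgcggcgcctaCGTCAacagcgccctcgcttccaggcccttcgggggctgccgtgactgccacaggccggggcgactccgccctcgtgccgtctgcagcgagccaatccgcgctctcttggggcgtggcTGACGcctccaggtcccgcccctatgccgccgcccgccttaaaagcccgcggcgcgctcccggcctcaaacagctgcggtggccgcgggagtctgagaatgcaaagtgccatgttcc
Rgs4: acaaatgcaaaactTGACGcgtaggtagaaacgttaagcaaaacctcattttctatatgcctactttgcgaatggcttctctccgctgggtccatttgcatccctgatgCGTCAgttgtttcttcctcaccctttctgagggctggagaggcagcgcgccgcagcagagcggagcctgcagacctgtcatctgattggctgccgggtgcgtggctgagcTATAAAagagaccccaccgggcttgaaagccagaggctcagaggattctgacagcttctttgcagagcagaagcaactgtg
TGACG occurred on either strand in 20.81% of 32851 promoter windows of the same length, and 2 matches lay in each of these windows. TATAAA, read on the gene's strand, occurred in 8.319% of windows. The GC-rich Smad motif GGCGCC occurred in 11.87% of windows and once in that of Rgs2. The palindromic Smad motif GTCTAGAC occurred in 0.2131% of windows and in none of the windows of Rgs2, Rgs4 and Rgs17. Bases of the Rgs2 window were 70% G or C and those of the Rgs4 window 53%. Rgs17 (chr10:5825663-5922400, minus strand) had no TGACG in its window. Rgs11 lies at chr17:26202951-26211324 on the plus strand and overlaps Arhgdig on the minus strand. Whether the counting used strand is not given in the sources used here, so reads of Rgs11 and Arhgdig may not be separable.

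Rgs2 was high in the Tac1 line and low in the other lines. Without BMP4 its level was 78.5 CPM (exact Poisson 95% interval 60.8 to 99.6) on Gcg plate 1, 47.6 CPM on Gcg plate 2 and 18.3 CPM on the Gip plate, against 2225 CPM (2091 to 2365) on Tac1 plate 1 and 1896 CPM (1643 to 2182) on Tac1 plate 2. Over all conditions the 9 sums of the Gcg and Gip lines ran from 18.3 CPM (median 44.0 CPM) up to 78.5 CPM, and the 8 sums of the Tac1 line from 600.0 CPM (median 1069 CPM) up to 2225 CPM. The groups did not overlap, and the share of all genes without such overlap is not given here. Between untreated Gcg and Tac1 lines 16.4% of 9168 genes tested were called, so a line difference was not particular to Rgs2. In untreated sums the fitted difference of the Gcg over the Tac1 line was -5.01 ± 0.47 on the log2 scale (SE, n = 2 plates each). In wells thinned to 2000 transcripts, Rgs2 was found in 1.59 to 12.5% of the wells of a Gcg or Gip sum and in 40 to 77.8% of the wells of a Tac1 sum. Gapdh, which encodes a glycolytic enzyme that most cells use, also differed between the lines without overlap, at 15.5 to 52.3 CPM in the Gcg and Gip lines and 219 to 525 CPM in the Tac1 line.

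Within the Tac1 line, Rgs2 lay in the wells that held Tph1, which encodes the enzyme that commits tryptophan to serotonin in enterochromaffin cells. Wells were grouped by Tph1 transcripts among 2000, a grouping made after the data were seen. Rgs2 stood at 363 CPM in the 75 wells with no Tph1 transcript, at 2008 CPM in 98 wells with 1 or 2, at 1769 CPM in 89 wells with 3 to 5 and at 2071 CPM in 65 wells with 6 or more. The wells without Tph1 were lower, and the other ranges did not form an order. These values pool the BMP4 conditions. In wells with no Tph1 and no hormone at 50 of 2000 transcripts, Rgs2 was 930 CPM untreated (11 wells). There it was 588 CPM after 24 h (13 wells) and 293 CPM after 4 d (28 wells). With at least 3 Tph1 transcripts and no such hormone it was 2350, 2084 and 1254 CPM in the same order (34, 53 and 66 wells). On each of the 5 plates of the line the wells without Tph1 were lower than those with at least 3 transcripts, at 438, 80.8, 507, 134 and 591 CPM against 2185, 1239, 1410, 1549 and 1318 CPM (plate 1, plate 2, the 24 h plate and both 4 d plates). In wells with no hormone at 50 this did not hold on the plate of 4 d alone with 3 such wells (1439 CPM, 689 to 2644, against 1318 CPM). Wells without Tph1 and without a hormone also held more Kcnq1ot1, a long nuclear RNA (138632 against 7294 CPM), and fewer enteroendocrine marker transcripts (29236 against 80444 CPM). Without wells rich in Kcnq1ot1 (at least 5% of transcripts) Rgs2 was 496 CPM in the 46 wells without Tph1, against 1900.1 CPM in the 152 with at least 3, and with wells of a hormone left out too it was 1101 CPM (895 to 1338), against 1898 CPM. In wells with at least 50 Gip transcripts Rgs2 was 59.1 CPM (17 wells, 6 transcripts) and in those with at least 50 Sst (somatostatin) transcripts 475 CPM (12 wells, 45 transcripts), against 1886 CPM in the 153 wells with at least 3 Tph1 transcripts and no such hormone. These wells share a line and a file kind. The same contrast could be read on Gcg plates in a few wells. The 2 wells of Gcg plate 1 with at least 3 Tph1 transcripts held 13 Rgs2 transcripts (1301 CPM, 692 to 2222), against 46.1 CPM in the 220 wells with none, and the 1 such well of Gcg plate 2 held 5 transcripts (1823 CPM).

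Rgs2 was spread over many wells of the Tac1 line and lay in few wells of the other lines. On Tac1 plate 1 a transcript was found in 137 of 163 wells before thinning, and the tenth of wells with most Rgs2 held 40.1% of its transcripts, with up to 74.7 in 1 well. The Gcg plates had it in 17.5% (plate 1) and 19.2% (plate 2) of wells and the Gip plate in 11.2%, and there the tenth of wells with most Rgs2 held 88.1, 85.2 and 93.8% of its transcripts. On the Gcg plates, wells led by Nts (neurotensin, a hormone of gut N cells) had 71.9 CPM of Rgs2 on plate 1 and 197 CPM on plate 2. The plate 2 value came largely from 24 h wells (296 CPM, 13 wells), whereas its 12 wells of 4 d held none.

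**Figure D1:**
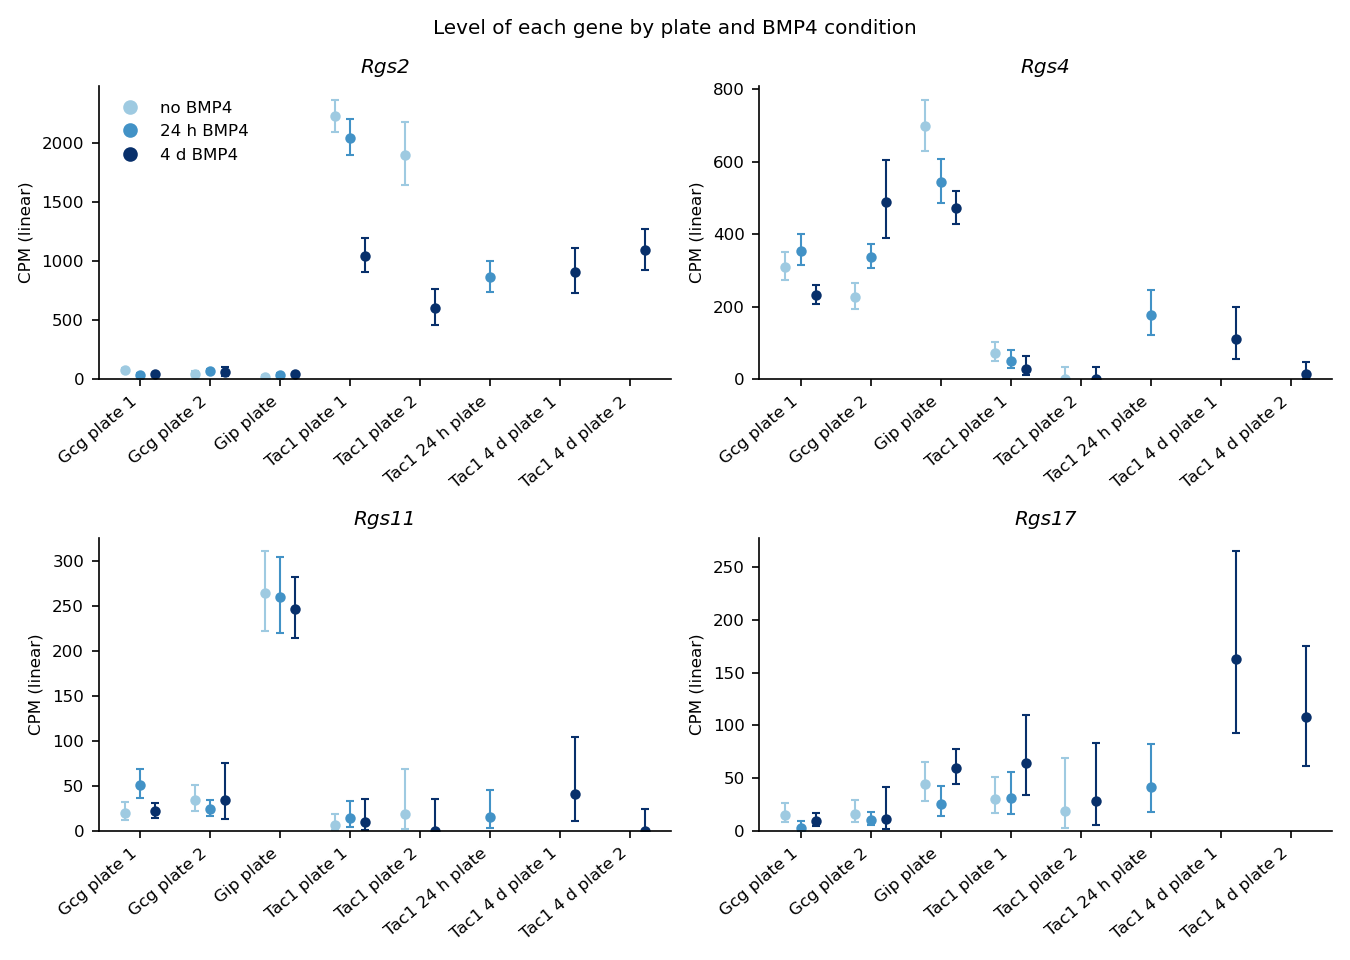
Level of the 4 genes by plate and BMP4 condition in CPM on linear axes, with exact Poisson 95% intervals that cover counting error only; plates of the Gcg and Gip lines are on the left and those of the Tac1 line on the right. Rgs2 stays at or under 78.5 CPM on Gcg and Gip plates and at or over 600.0 CPM on Tac1 plates, Rgs4 is high on the Gcg and Gip plates, and Rgs11 is highest on the Gip plate.

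Rgs4 showed the opposite pattern over the lines. Its level without BMP4 was 310.0 CPM (274 to 350.0) on Gcg plate 1, 228 CPM on Gcg plate 2 and 698 CPM (629 to 771) on the Gip plate, against 73.7 CPM on Tac1 plate 1 and 0 on Tac1 plate 2, where 0 transcripts allow up to 28.8 CPM (3 counts). Over all conditions the Gcg and Gip lines ran from 228 CPM (median 355 CPM) up to 698 CPM and the Tac1 line from 0 (median 40.5 CPM) up to 177 CPM. The fitted difference of the untreated Gcg over the Tac1 line was 2.32 ± 0.50 on the log2 scale (n = 2 plates each) and 1.80 without Tac1 plate 2. It was 10.19 without Tac1 plate 1, which leaves a Tac1 plate at 0 and is no bound.

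Within a plate, Rgs4 was highest in wells led by neurotensin (Gcg plates) or by somatostatin (Gip plate), among groups of at least 10 wells. Wells were put in a class by their leading hormone where it reached 50 of 2000 transcripts, a minimum chosen after the data were seen because with the minimum of 5 set earlier a few Sst transcripts named most wells of some Tac1 plates. On Gcg plate 1 Rgs4 was 850.4 CPM (780 to 926) in 64 Nts wells, 475 CPM in 12 Pyy (peptide YY) wells, 372 CPM in 12 Gip wells, 207 CPM in 23 Cck (cholecystokinin) wells, 112 CPM (83.3 to 146) in 37 Gcg wells and 24.0 CPM in 78 wells with no hormone at 50. On Gcg plate 2 it was 920.3 CPM (819 to 1031) in 32 Nts wells, 509 CPM in 19 Cck wells, 217 CPM (181 to 257) in 58 Gcg wells, 174 CPM in 12 Pyy wells and 30.8 CPM in 48 wells with no hormone at 50. Among classes of at least 10 wells, Nts wells were highest and wells with no leading hormone lowest on both plates, while Pyy and Cck wells changed places. The 3 Sst wells of each plate had 1356 CPM (838 to 2069, 21 transcripts) on plate 1 and 391 CPM (15 transcripts) on plate 2. The 9 Gip wells of plate 2 had 451 CPM (342 to 582), so its Sst wells were not above its Gip or Cck wells. With the minimum of 5, Nts wells had 805 and 920.3 CPM and Gcg wells 94.4 and 154 CPM on plates 1 and 2.

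On the Gip plate Rgs4 was 929 CPM (846 to 1016) in 45 Sst wells and 459 CPM (424 to 497) in 199 Gip wells. The level also climbed with the amount of Nts in the well. On Gcg plate 1 it was 113 CPM in wells with 0 to 4 Nts transcripts, 289 CPM with 5 to 49, 585 CPM with 50 to 199 and 947 CPM with 200 or more. On Gcg plate 2 the same ranges had 149, 388, 592 and 1109 CPM. Even the Tac1 line, low in total, had Rgs4 in its wells with other hormones, at 345 CPM in the 17 Gip wells and 369 CPM in the 12 Sst wells (35 transcripts each), against 17.6 CPM in the 153 wells with at least 3 Tph1 transcripts. The wells of the Gcg plates with no hormone at 50 also differed in cell type markers. Their enteroendocrine markers summed to 2054 CPM on plate 1 and 5744 CPM on plate 2, and their enterocyte markers to 41049 and 30364 CPM, whereas Nts wells had 11624 and 12313 CPM of enteroendocrine markers. The part of these markers in the low Rgs4 level of such wells was not tested.

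On the plates where Rgs4 was high, a part of the wells held most of it. On Gcg plate 1 the tenth of wells with most Rgs4 held 70.4% of its transcripts, with up to 110 in an Nts well, and on the Gip plate 54.1%, with up to 94.1 in an Sst well. After thinning, Rgs4 was found in 21.1 to 32.9% of wells of a Gcg sum, in 40 to 47.6% of wells of a Gip sum and in 0 to 12.5% of wells of a Tac1 sum.

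**Figure D2:**
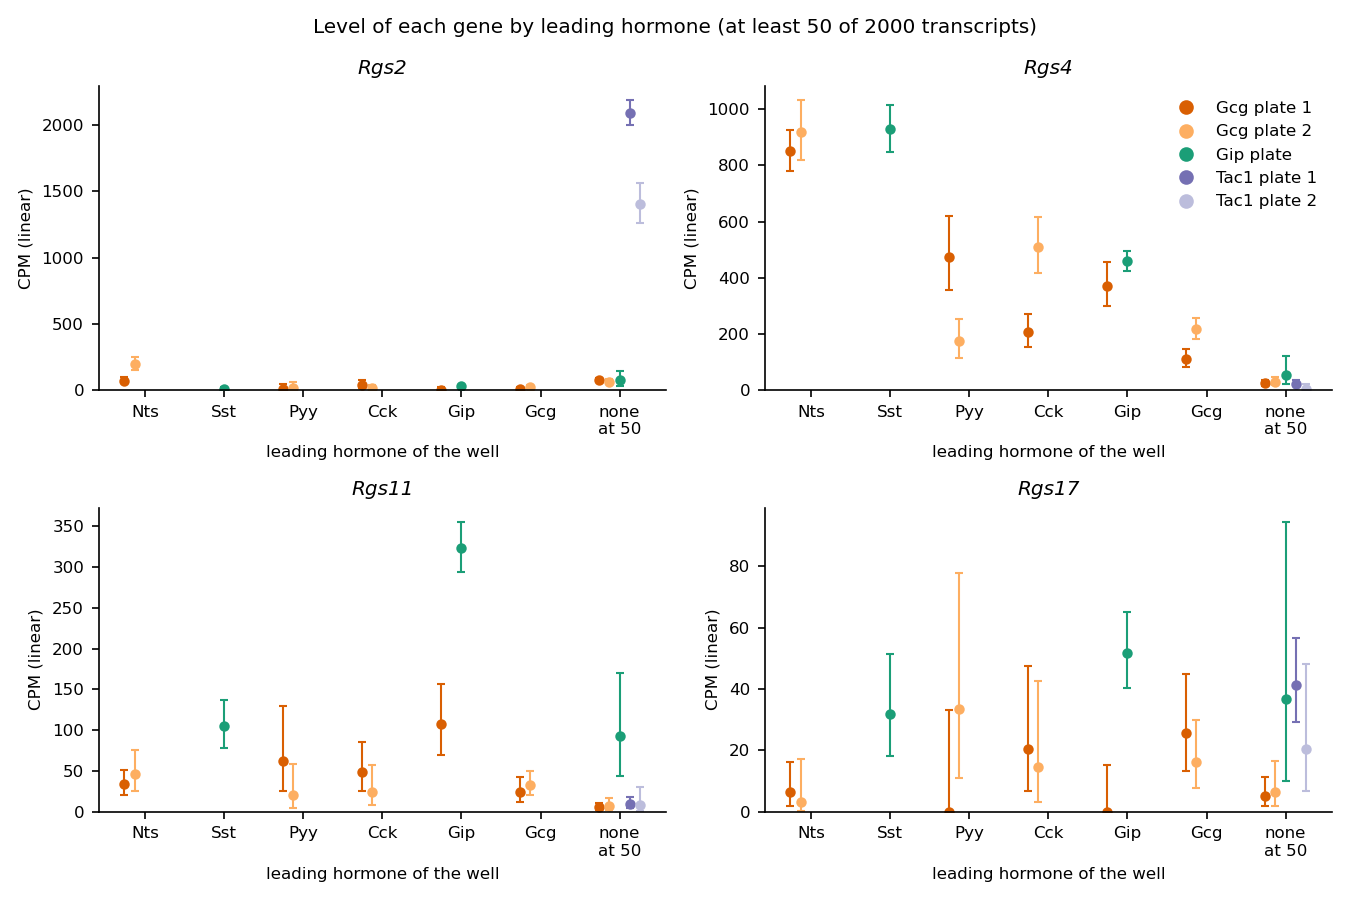
Level of the 4 genes in CPM (linear axes, exact Poisson 95% intervals) by the hormone that leads the well with at least 50 of 2000 transcripts, for plate and hormone pairs of at least 10 wells. Rgs4 is highest in Nts wells of the Gcg plates and Sst wells of the Gip plate, Rgs11 in Gip wells, and Rgs2 in the wells of the Tac1 plates with no hormone at 50.

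Rgs11 was highest on the Gip plate and, within plates, in Gip wells. On the Gip plate its level was 264 CPM (223 to 311) without BMP4, 260.1 CPM after 24 h and 247 CPM (215 to 282) after 4 d. The Gcg plates had 19.9 to 50.8 CPM and the Tac1 plates 0 to 40.7 CPM, from at most 5 transcripts per Tac1 sum. Every sum of the Gip plate lay above every other sum, while those of the Gcg and Tac1 lines overlapped. The Gip line is 1 plate, so its difference from the other lines has no replicate.

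Within plates the Gip wells came first, while the other hormone classes did not keep an order. On the Gip plate Rgs11 was 324 CPM (294 to 355) in 199 Gip wells and 105 CPM (78.6 to 137) in 45 Sst wells. On Gcg plate 1 it was 107 CPM (70.0 to 157) in 12 Gip wells, 62.6 CPM (25.2 to 129) in 12 Pyy wells and 48.8 CPM (25.2 to 85.2) in 23 Cck wells. Nts wells there had 33.5 CPM and Gcg wells 23.6 CPM (11.8 to 42.2). On Gcg plate 2 the 9 wells led by Gip had 93.2 CPM (48.2 to 163, 12 transcripts), against 46.2 CPM (25.8 to 76.2) in Nts wells and 32.6 CPM (19.9 to 50.3) in Gcg wells. Gip wells thus had the highest level on each of these 3 plates, but those of the Gcg plates were at less than the level on the Gip plate. The intervals of Gip wells overlapped those of Pyy and Cck wells on Gcg plate 1 and those of Nts, Gcg, Cck and Pyy wells on Gcg plate 2. By amount of Gip in the well, Rgs11 on the Gip plate was 107 CPM with 5 to 49 Gip transcripts of 2000, 256 CPM (210 to 308) with 50 to 199 and 304 CPM (273 to 336) with 200 or more. The last 2 intervals overlapped, and the shares of thinned wells with Rgs11 in these ranges were 53.4% and 43.2%. Wells led by Sst (minimum of 5) on this plate had a median of 38 Gip transcripts. The lowest range thus shares wells with the Sst class and is no separate comparison. The tenth of wells with most Rgs11 held 38.0% of its transcripts on the Gip plate, against 54.1% for Rgs4, and 190 of 268 wells had at least 1 before thinning, against 164 for Rgs4. On Gcg plate 1 the tenth of wells with most of each gene held 69.9% for Rgs11 and 70.4% for Rgs4. In wells thinned to 2000, Rgs4 was found in 114 of the 268 wells, Rgs11 in 115 and both in 54.

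**Figure D3:**
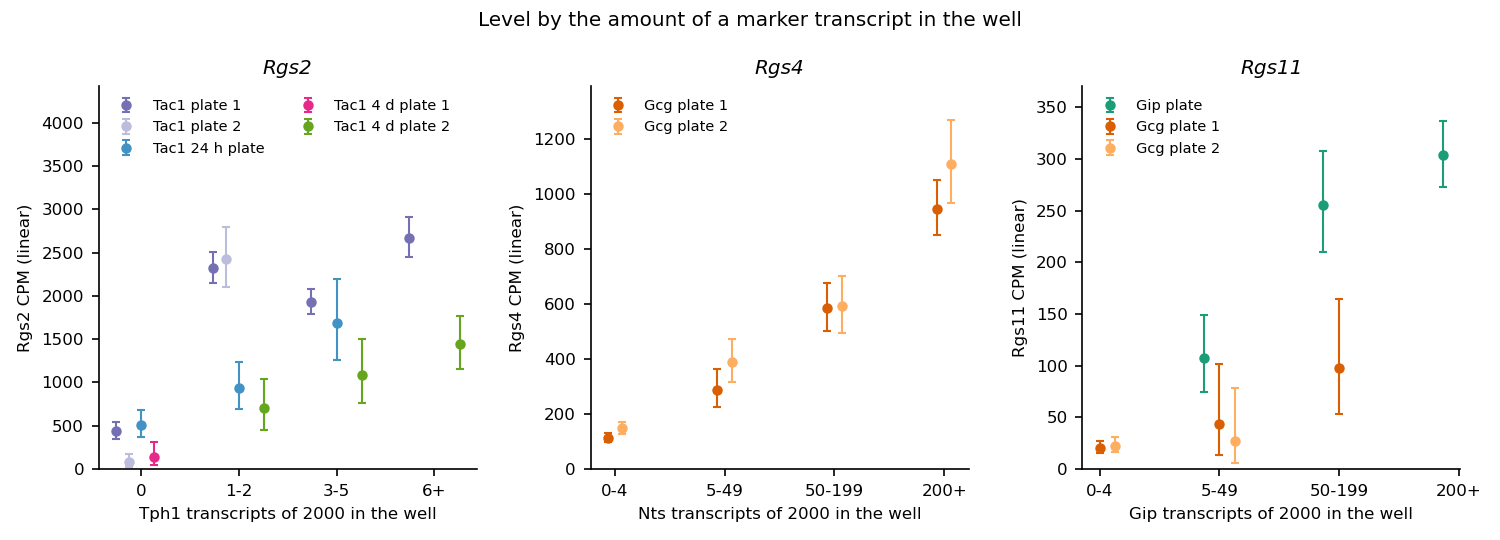
Level in CPM (linear axes, exact Poisson 95% intervals) of Rgs2 by Tph1 transcripts, of Rgs4 by Nts transcripts and of Rgs11 by Gip transcripts in the well, each among 2000, for plate and range pairs of at least 10 wells. Rgs4 goes up over the 4 ranges on both Gcg plates. Rgs11 on the Gip plate is at 107 CPM in the lowest range drawn and at 304 CPM in the highest, where its interval overlaps that of the range with 50 to 199.

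Rgs17 was the rarest of the 4 in transcripts counted, with at most 52 in a sum. Its levels without BMP4, after 24 h and after 4 d were 15.2, 2.60 and 9.59 CPM on Gcg plate 1, 16.3, 10.5 and 11.6 CPM on Gcg plate 2, and 44.0, 25.8 and 59.4 CPM on the Gip plate. They were 30.4, 31.4 and 64.0 CPM on Tac1 plate 1, and 19.2 CPM without BMP4 and 28.5 CPM after 4 d on Tac1 plate 2. The 24 h plate of the Tac1 line had 41.5 CPM, and the 4 d plates had 163 CPM (93.2 to 265) and 108 CPM (61.5 to 175). The lines overlapped. The Tac1 plates of 4 d alone were highest, and the Gcg plates lowest. By hormone, Gip wells of the Gip plate had 51.6 CPM (40.3 to 65.1), whereas the 12 Gip wells of Gcg plate 1 had 0 transcripts, which allows up to 12.4 CPM (3 counts).

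In the Tac1 line Rgs17, unlike Rgs2, was higher in wells without Tph1. Over all wells it was 82.4 CPM (56.3 to 116) with no Tph1 transcript, 46.8 CPM with 1 or 2 and 23.0 CPM with 3 to 5. With 6 or more it was 49.6 CPM (28.9 to 79.4), which overlapped the interval of wells with none. The wells without a hormone were further apart. It was 129 CPM (86.2 to 185) in the 52 wells with no Tph1 transcript and no hormone at 50, and 34.0 CPM (22.7 to 48.8) in the 153 wells with at least 3 Tph1 transcripts. These values pool the conditions. Without BMP4 they were 36.4 CPM (4.41 to 132, 2 transcripts) and 26.6 CPM, after 24 h 125.98 CPM (46.2 to 274) and 23.1 CPM (9.28 to 47.6), and after 4 d 171 CPM (106 to 261) and 52.1 CPM (29.2 to 86.0), so that the untreated intervals overlapped and those after 4 d did not. The 52 wells also had the high Kcnq1ot1 and low enteroendocrine marker levels given above, and their 7 listed tuft cell markers to 293 against 16.4 CPM, with 2 of the 7 at 0 in either class. Without Kcnq1ot1-rich wells Rgs17 was 66.02 CPM (24.2 to 144, 6 transcripts) in wells without Tph1 and 34.3 CPM (23.0 to 49.3) in those with at least 3, with overlapping intervals. In wells where Kcnq1ot1 held at least 5% of transcripts, Rgs17 was 155 CPM (40 wells), against 36.7 CPM in the other 287 wells of the line. Rgs2 in the same wells was 173 CPM, against 1729 CPM in the others. On the Gcg plates Kcnq1ot1-rich wells had 69.6 CPM of Rgs4 (64 wells), against 321 CPM in the others, and on the Gip plate 152 CPM (58 wells), against 601 CPM. Rgs11 on the Gip plate was 289.8 CPM in such wells and 251 CPM in the others, with overlapping intervals.

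**Figure D4:**
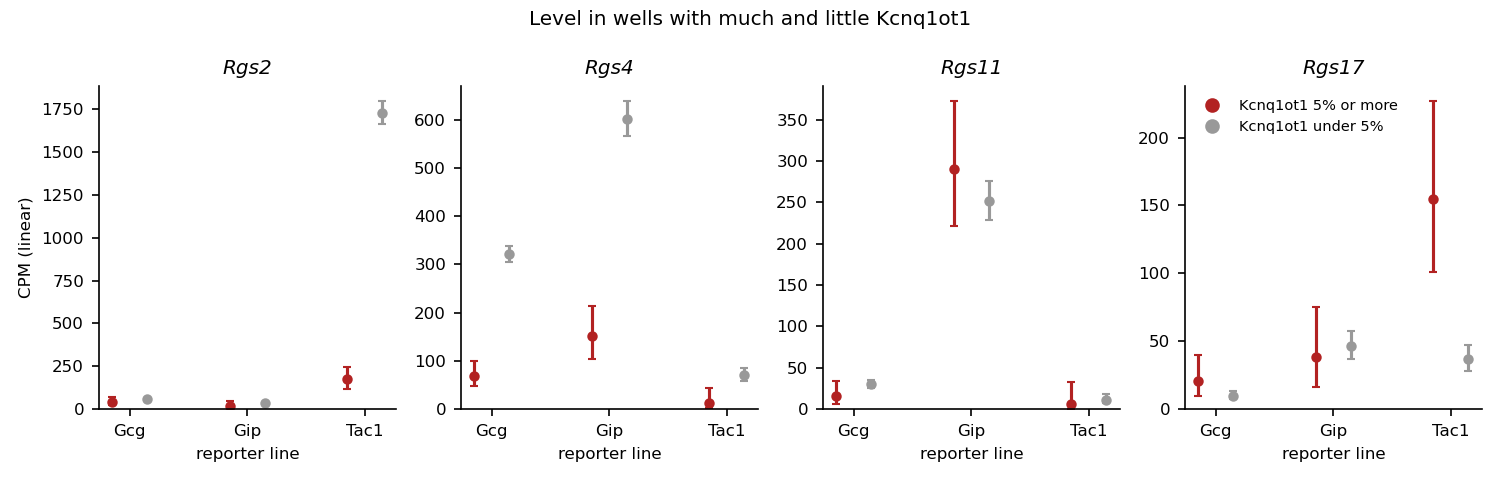
Level of the 4 genes in CPM (linear axes, exact Poisson 95% intervals) in wells where Kcnq1ot1 holds at least 5% of transcripts (red) and in the other wells (grey), by reporter line. Rgs2 in the Tac1 line and Rgs4 in the Gcg and Gip lines are lower in Kcnq1ot1-rich wells, Rgs17 in the Tac1 line is higher, and Rgs11 on the Gip plate overlaps.

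The comparison of BMP4 with none asks how the ligand changes these cells. None of the 4 regulators passed the test over all genes at either time. After 4 d against none the pooled change over 5 plates was -0.43 ± 0.32 for Rgs2, -0.05 ± 0.29 for Rgs4, 0.03 ± 0.32 for Rgs11 and 0.42 ± 0.36 for Rgs17 on the log2 scale (SE, edgeR with plate as a block). Of the 4, 0 were called with an adjusted p under 0.05, beside 3.33% of 8308 genes tested (2.41% higher and 0.927% lower), and their median change was -0.01 beside -0.00 over all genes. By DESeq2 0 were called as well, and 0 had an unadjusted p under 0.05. After 24 h the changes over 4 plates were -0.16 ± 0.34, -0.02 ± 0.28, 0.30 ± 0.31 and -0.73 ± 0.38 in the same gene order, and 0 of 4 were called, beside 0.0963% of genes (0 with an unadjusted p under 0.05, and 0 called by DESeq2). Between 4 d and 24 h of BMP4 they were -0.26 ± 0.35, -0.02 ± 0.29, -0.28 ± 0.32 and 1.15 ± 0.39, and 0 were called, beside 0.397% of genes. In that contrast 1 of the 4, Rgs17, had an unadjusted p under 0.05, and 0 were called by DESeq2. Rgs17 was higher after 4 d than after 24 h on 4 of 4 plates and 1.09 ± 0.37 higher without Kcnq1ot1-rich wells, but the 24 h sums held only 2 to 15 transcripts.

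In each sum, fewer cells of a type and less RNA per cell cannot be told apart. For Rgs2 the lines went different ways. On Tac1 plate 1 its level was 2225 CPM without BMP4, 2047 CPM after 24 h and 1046 CPM (908 to 1194) after 4 d. On Tac1 plate 2 it was 600.0 CPM after 4 d, against 1896 CPM without BMP4. The 24 h plate of this line had 862 CPM, and the 4 d plates 908 and 1092 CPM, so that the separate 24 h plate was no higher than the 4 d plates. The fitted 4 d change was -1.11 ± 0.40 in the Tac1 line (n = 2 plates), -0.24 ± 0.45 in the Gcg line (n = 2) and 1.28 ± 0.70 on the Gip plate, where it rests on 36 transcripts after 4 d and 10 without BMP4. The change in the Tac1 line was not called (edgeR, adjusted p = 0.24) and was called in 2 of 14 alternatives, whose estimates ran from -1.33 to -0.78. As Rgs2 was chosen with results of these data known, these calls are a description only. Wells rich in Kcnq1ot1 made up 31.7% of the 4 d wells of Tac1 plate 1, against 2.94% of the untreated ones, and 43.8% against 12.5% on Tac1 plate 2. Without them the Tac1 line's change was -0.79 ± 0.59, with 1376 CPM after 4 d against 2253 CPM untreated on plate 1 and 896 against 2033 CPM on plate 2, and the pooled change over all lines was -0.03 ± 0.36. In wells with at least 3 Tph1 transcripts and no hormone at 50, over the plates of the Tac1 line, Rgs2 was 2350 CPM without BMP4 (34 wells), 2084 CPM after 24 h (53 wells) and 1254 CPM (1129 to 1391) after 4 d (66 wells). On Tac1 plate 1 alone, wells with at least 3 Tph1 transcripts had 2542, 2185 and 1257 CPM. On that plate the lower 4 d level thus appeared within these wells too. On the plates of a single condition such wells had 1410 CPM (1100 to 1777) after 24 h and 1549 and 1318 CPM after 4 d. No lower 4 d level showed between those plates. The pooled 4 d wells come in part from the plates that held 4 d alone.

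For Rgs4 the 2 Gcg plates moved apart. Gcg plate 1 had 310.0, 355 and 232 CPM without BMP4, after 24 h and after 4 d, and Gcg plate 2 had 228, 338 and 489 CPM. The 4 d change of the Gcg line was 0.48 ± 0.40, and -0.27 without Gcg plate 2 and 1.27 without Gcg plate 1. On the Gip plate Rgs4 was 698, 543 and 472 CPM in the same order. Its Sst wells had 1351, 903 and 633 CPM (11, 15 and 19 wells) and its Gip wells 461, 414 and 490.1 CPM (52, 52 and 95 wells). The Sst wells thus went down with BMP4, while the Gip wells showed no such order. After 4 d the plate also held 20 wells with no hormone at 50, at 64.5 CPM. How far each class, or the mix of classes, makes up the lower level of the plate was not tested. Kcnq1ot1-rich wells made up 37.8% of the 4 d wells of this plate, against 1.59% of the untreated ones. Without them Rgs4 was 699.9, 565 and 553 CPM on the plate and 1372, 917 and 645 CPM in its Sst wells, so the order without BMP4, after 24 h and after 4 d was kept in both. In Nts wells Rgs4 was 504 CPM after 4 d against 1184 CPM after 24 h on Gcg plate 1, and 799 against 1038 CPM on Gcg plate 2. Both plates were lower after 4 d than after 24 h, with non-overlapping intervals on plate 1 (436 to 576 against 993 to 1393) and overlapping ones on plate 2 (615 to 1015 against 899 to 1195). With Kcnq1ot1-rich wells left out, untreated Nts wells had 1873 CPM on plate 1 (9 wells) and 689 CPM (485 to 949) on plate 2 (7 wells). The 4 d level there was 529 CPM on plate 1 and 799 CPM on plate 2. Against no BMP4 only plate 1 was thus lower after 4 d. Tac1 plate 1 had 73.7, 51.4 and 29.5 CPM, and Tac1 plate 2 had 0 both without BMP4 and after 4 d.

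Rgs11 in the Gip wells of the Gip plate was 310.2 CPM without BMP4, 336 CPM after 24 h and 325 CPM after 4 d. All intervals overlapped, from a lowest bound of 258 to a highest of 398 CPM. The share of wells of this plate with an Rgs11 transcript was 27.0, 45.7 and 48.9% in wells thinned to 2000, which went against the flat CPM. Thinned to 3000, the untreated share was 46.4%. The 4 d change was 0.03 ± 0.60 on the Gip plate, 0.06 ± 0.58 in the Gcg line and -0.33 ± 1.30 in the Tac1 line, the last from 0 to 3 transcripts per sum. For Rgs17 the 4 d change was -0.34 ± 0.63 in the Gcg line, 0.56 ± 0.66 on the Gip plate and 1.16 ± 0.67 in the Tac1 line, and 0.29 ± 0.77 in the Tac1 line without Kcnq1ot1-rich wells.

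**Figure D5:**
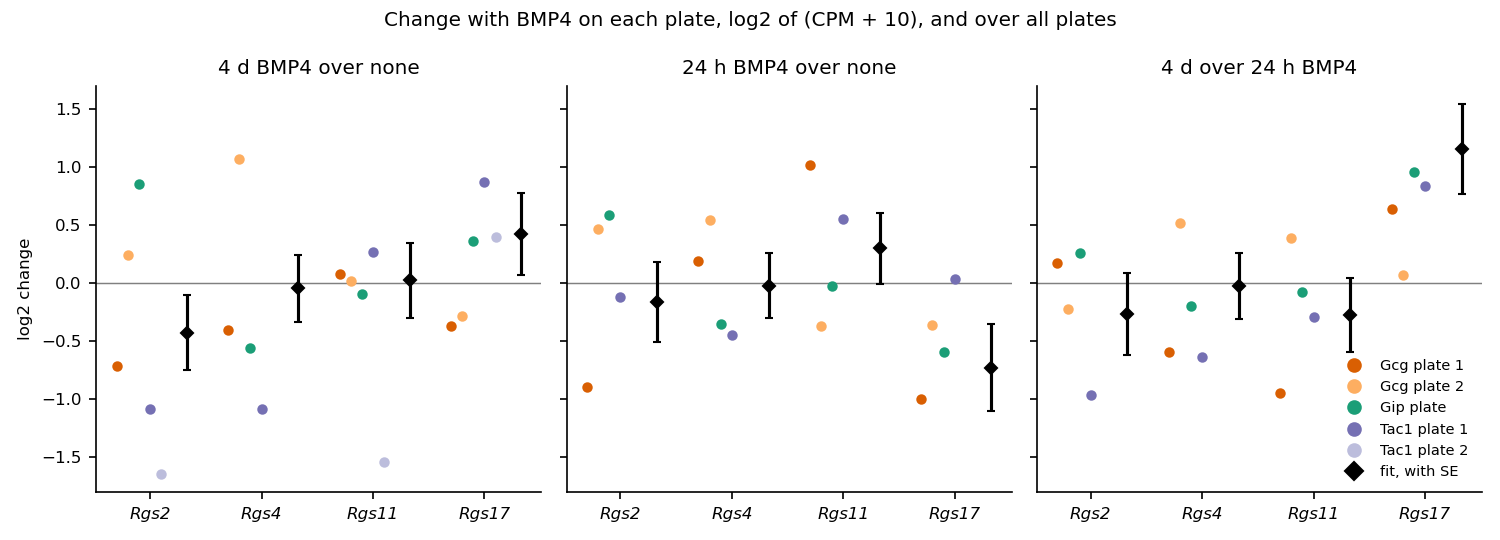
Change of each gene on the log2 scale for 4 d of BMP4 over none, 24 h over none and 4 d over 24 h; coloured points are single plates, as ratios of CPM + 10, and diamonds with bars are the edgeR estimate over all plates with its SE (Tac1 plate 2 has no 24 h sum, and no point where both counts are 0). Most genes have plates on both sides of 0, and Rgs17 is above 0 on 4 of 4 plates between 4 d and 24 h.

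Whether the 4 d change differed between the Gcg and the Tac1 line was tested as an interaction. The difference, Gcg minus Tac1, was 0.87 ± 0.60 for Rgs2, 1.62 ± 0.86 for Rgs4, 0.40 ± 1.42 for Rgs11 and -1.50 ± 0.92 for Rgs17 (-0.49 ± 0.97 without Kcnq1ot1-rich wells). In this test 0 of the 4 passed, beside 0% of 8308 genes, where edgeR gave 754 genes an unadjusted p under 0.05 and DESeq2 called 22. Between untreated Gcg and Tac1 lines, 2 of the 4 passed (Rgs4 higher and Rgs2 lower in the Gcg line), beside 16.4% of 9168 genes tested (8.79% higher and 7.66% lower), and DESeq2 called 1, Rgs2. This count is given for completeness, since the genes may have been picked for it. The other values were 1.48 ± 0.69 for Rgs11 and -0.82 ± 0.63 for Rgs17.

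The rest of the family was sparse. Of 17 other RGS genes, 12 are listed in the files, and only Rgs16 and Rgs7 had enough transcripts for the BMP4 tests. Rgs16, like Rgs2 and Rgs4 a member of the R4 subfamily, was at 58.6 and 103 CPM on the untreated Gcg plates, against 10.8 and 0 CPM on the untreated Tac1 plates, and was higher in the Gcg line by 3.14 ± 0.65 (adjusted p = 0.0009, edgeR's quasi-likelihood test; 0.028 by DESeq2). Its 4 d change was -0.60 ± 0.37 (adjusted p = 0.5). Rgs7, which like Rgs11 is of the R7 subfamily, had its highest level at 133 CPM on Tac1 plate 2 after 4 d and at most 14.7 CPM on the Gip plate, where Rgs11 was highest. Its line difference was 0.12 ± 0.46 (adjusted p = 0.91) and its 4 d change -0.32 ± 0.48 (adjusted p = 0.85). Gnb5, the Gβ5 partner of both, was detected at up to 44.5 CPM and was at 0.19 ± 0.37 after 4 d (adjusted p = 0.89). Rgs3 (adjusted p = 0.065), Rgs12 (0.63) and Rgs13 (0.82) did not pass between the untreated lines. Rgs6 and Rgs20 had at most 3 transcripts in any sum.

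The genes around the regulators were taken from 7 lists: other RGS genes, R7 partners, Gα subunits, Gβ and Gγ subunits, effectors, receptor kinases with arrestins and other modulators, and receptors of enteroendocrine cells. After 4 d of BMP4, 2 of the 46 tested genes rose and 0 fell, or 4.35% beside 3.33% of all genes. One was Sstr1, a Gαi-coupled somatostatin receptor, at 108 against 4.69 CPM on Gcg plate 1, 209 against 8.92 on Gcg plate 2, 155 against 14.7 on the Gip plate, 340 against 30.4 on Tac1 plate 1 and 171 against 9.59 CPM on Tac1 plate 2 (4 d against none in each pair). It rose by 4.03 ± 0.27 on 5 of 5 plates (adjusted p = 5.2e-07). Sstr1 was also the 1 gene of the 46 that passed after 24 h, at 2.24 ± 0.29 (adjusted p = 0.0019), and between 4 d and 24 h, at 1.80 ± 0.23 (adjusted p = 0.0044). The call between 4 d and 24 h was lost without Tac1 plate 1 (adjusted p = 0.11) and without the Gip plate (0.061). The other was Grk4, a receptor kinase, at 2.35 ± 0.38 (adjusted p = 0.0037; 5 of 5 plates). Its level was 2660 against 2235 CPM on Gcg plate 1, 3734 against 990 on Gcg plate 2 and 4613 against 391 on the Gip plate. On Tac1 plates 1 and 2 it was 10910 against 1737 and 17820 against 3329 CPM. Without Kcnq1ot1-rich wells Grk4 was at 0.43 ± 0.24 (adjusted p = 0.52), and Sstr1 at 4.14 ± 0.28 (adjusted p = 6.2e-06). The source of the high Grk4 counts was not tested. Gnao1, the Gαo subunit on which Rgs4, Rgs11 and Rgs17 can act, was lower on 5 of 5 plates at -0.92 ± 0.25 but did not pass (adjusted p = 0.063), and Adcy2, an adenylyl cyclase, was higher on 5 of 5 plates at 1.24 ± 0.37 (adjusted p = 0.088).

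Between untreated Gcg and Tac1 lines, 14 of 51 tested genes of these lists were higher and 6 lower in the Gcg line, or 39.2% beside 16.4% of all genes, with line and file kind not separable. The lists were chosen with earlier results of these data known, so this share is a description only. Of the 9 receptors of enteroendocrine cells tested, 6 were higher and 2 lower. Among Gα subunits, which RGS proteins act on, Gnai1 was at 64.4 and 135 CPM in the Gcg line, against 6.51 and 0 CPM in the Tac1 line (4.14 ± 0.71, adjusted p = 9.7e-05), and Gnaz, the Gαz that RZ members act on, was lower in the Gcg line, at -1.97 ± 0.43 (adjusted p = 0.0017; 0.051 without Gcg plate 1). Among effectors, Adcy1, a calcium-stimulated adenylyl cyclase, was lower in the Gcg line (-5.88 ± 0.49, adjusted p = 1.3e-09), and Kcnj3, a potassium channel subunit opened by Gβγ, was at 37.5 and 80.3 CPM in the Gcg line and at 0 in both sums of the Tac1 line. Among receptors, the oleoylethanolamide receptor gene Gpr119 was higher (3.67 ± 0.61, adjusted p = 7.1e-05). The short-chain fatty acid receptor genes went opposite ways, with Ffar3 at 51.5 and 95.1 CPM in the Gcg line and 0 in both sums of the Tac1 line, and Ffar2 lower in the Gcg line, at -2.73 ± 0.38 (adjusted p = 6.5e-06).

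Genes with the pattern most like each regulator were ranked by Pearson's r of log2(CPM + 10) over the 17 sums, among the genes with a mean of at least 50 CPM (3485 for Rgs17 and 3484 for the others). The sums share plates, lines and file kinds, so r is a description only. For Rgs2 they were Psat1 (r = 0.987), Tpbg (0.986), Syn2 (0.984), Psme2 (0.983) and Gapdh (0.981). For Rgs4 they were Scgn (0.978), Ergic3 (0.960), Scg2 (0.931), Abcc8 (0.918) and Galnt7 (0.907), and Scgn ran from 605 to 1245 CPM in the Gcg and Gip lines and from 0 to 398 CPM in the Tac1 line. For Rgs11 they were Itpr1 (0.893), Pkm (0.867), Pdzrn3 (0.859), Pax6 (0.850) and Egr2 (0.843), of which Itpr1, Pax6 and Egr2 peaked on the Gip plate after 24 h. For Rgs17 they were Ssbp3 (0.856), Cacna2d1 (0.845), Adi1 (0.843), Ambp (0.836) and Marcks (0.831), all highest on a 4 d plate of the Tac1 line. Rgs2 and Rgs4 had r = -0.81 with each other, and Rgs4 and Rgs11 had 0.74.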

How the data were processed

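Live reporter-positive cells were sorted into 384-well plates and processed by SORT-seq, a CEL-seq2 form that counts molecular identifiers, with a NextSeq500 run, per the labels' protocols. The submitters' processing notes name BWA 0.6.2-r126 and the build mm10. In the sources used here, the way reads were assigned to genes, with or without strand, is not given. The authors deposited expected counts per gene and well, in which identifier collisions are corrected. Undoing this with 4096 identifiers of 6 bases gave whole numbers within 0.01 for 100% of values, although the labels state 4 bases. Files of the Tac1 line list 17087 genes and those of the Gcg and Gip lines 19754, and the 16115 shared genes were used.

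Wells with at least 2000 transcripts were summed per plate and condition (at least 10 wells), and each sum of deposited expected counts was rounded to a whole number. The 14 sums of the 5 plates with all conditions were fitted with edgeR 4.0.16 (R 4.3.3): filterByExpr, TMM, quasi-likelihood F test, plate as a block, Benjamini-Hochberg adjustment over all genes tested, called under 0.05. The fit was tested on simulated data. Plates pair the conditions by design, and sums of a plate deviated together in all 13 pairs (r = 0.365 to 0.7306). DESeq2 1.42.0, other filters, scalings and well minimums, no block and leaving out each plate were alternatives. Untreated lines lie on separate plates and were compared without a block.

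Levels are CPM with exact Poisson 95% intervals (floor 3 counts), and shares are of wells thinned to 2000 transcripts (11 kept wells fell just under 2000 over the shared genes). Intervals cover counting error only. Python 3.11.15, numpy 2.4.6, pandas 2.3.3 and scipy 1.17.1 were used. Doublets were not called, as wells got 1 sorted cell each.

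The 4 genes and all gene lists were chosen with earlier results of these data known. Named genes are the 4 regulators, every other RGS gene tested, up to 4 called genes of each other list by smallest p (the 2 with the smallest p where none passed), and the 5 genes most like each regulator over the sums. Gapdh stands beside Rgs2 under that rule. Rgs6 and Rgs20 were named after their values were seen. The classes by at least 50 hormone transcripts, by Tph1, Nts and Gip transcripts and by Kcnq1ot1 (at least 100 of 2000 transcripts) were added after the data were seen.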

Additional observations from a re-analysis of the deposited data

Results flagged for a closer look

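All values here are ratios of CPM + 10 on the log2 scale, with BMP4 over none. Sets of plate ratios, and of CPM over the Tac1 plates after 4 d, were looked at for a plate far from the others. Of these 16 sets, 1 held such a plate, and chance gives about 1 in 20. It was Rgs11 after 4 d on Tac1 plate 2, at -1.54, and it rests on 0 transcripts after 4 d and 2 without BMP4.

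Some lines had all their plates on opposite sides of 0, with 1 or 2 plates each. For Rgs2 after 4 d the Gip plate was at 0.85 and the Tac1 line averaged -1.36 (n = 2). For Rgs4 after 24 h the Gcg line averaged 0.37 (n = 2), the Gip plate was at -0.36 and Tac1 plate 1 at -0.45. For Rgs11 after 4 d the Gcg line averaged 0.0496 (n = 2) and the Gip plate was at -0.0945, both near 0. For Rgs17 after 24 h the Gcg line averaged -0.68 (n = 2) and Tac1 plate 1 was at 0.0374. After 4 d Rgs17 averaged -0.33 in the Gcg line (n = 2) and 0.64 in the Tac1 line (n = 2), and was at 0.36 on the Gip plate. These differences were not tested, except that of the Gcg and Tac1 lines after 4 d, which for Rgs17 was -1.50 ± 0.92 in edgeR's fit and was not called.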

How the results depend on the processing

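The pooled log2 changes of the 4 genes with BMP4 were called in 0 of 168 values over the alternatives run. In 24 of these the sign was the other one, mostly for Rgs4, whose changes were near 0. Between untreated lines Rgs2 was called in 13 of 13 alternatives and Rgs4 in 12, the exception being DESeq2 (adjusted p = 0.48). The genes may have been picked for this difference, so these calls support nothing about the list. As fitted, 16.4% of 9168 genes tested were called in it. With no replicate block Sstr1 after 24 h (adjusted p = 0.73) and between 4 d and 24 h (0.60) and Grk4 after 4 d (0.19) were not called. Of 68 shares of wells 14 moved by more than their interval when thinned to 3000, and of 160 levels by hormone 11 moved. Counts over all genes moved more, and 29 of 69 by over 1.5 times. The 277 genes called at 4 d against none became 654 with no filter, 72 without Kcnq1ot1-rich wells (added after the data were seen), 13 with no replicate block, and 90 (without Tac1 plate 1) to 345 (without Gcg plate 1) without 1 plate each, with 137 without the Gip plate. The 8 at 24 h became 18 by DESeq2, 45 with no filter, 4 with no replicate block and 6 to 10 without 1 plate each. The 33 between 4 d and 24 h became 135 by DESeq2, 324 with no filter, 138 with at least 1000 transcripts per well, 109 with at least 5 wells per sum, 105 in wells with a hormone, 15 without Kcnq1ot1-rich wells, 0 with no replicate block, and 1 (without Tac1 plate 1) to 120 (without Gcg plate 1), with 79 without Gcg plate 2, 12 without Tac1 plate 2 and 4 without the Gip plate. The 1508 between untreated lines became 680 by DESeq2 and 793 (without Gcg plate 1) to 1478, with 927 without Tac1 plate 1. The 0 of the difference between lines became 22 by DESeq2, 113 with no filter, 20 in wells with a hormone, 3 with no replicate block and 0 to 60 (without Gcg plate 1). The cause of these moves was not tested. Where leaving out a plate left 1 in a line, that plate was taken to vary like the others. Depth limits Rgs17, with at most 52 transcripts in a sum, and Rgs4 and Rgs11 in the Tac1 line, with at most 34 and 5.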
